A study of Mus musculus with 6 samples.

Results

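The HoxA cluster genes were followed here across 3 kinds of cultured mouse embryonic gut cells. The 9 members, Hoxa2, Hoxa3, Hoxa4, Hoxa5, Hoxa7, Hoxa9, Hoxa10, Hoxa11 and Hoxa13, were taken by gene name from the annotation of the array, and they account for 9 of the 12393 genes measured and for 12 of the 20380 probe sets that name a single gene. Hoxa3, Hoxa4 and Hoxa9 each had 2 probe sets, and the main reading of a gene is the probe set with the highest mean over the 6 arrays.

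Hox genes encode homeodomain transcription factors that sit side by side in clusters. Genes at the 3′ end of a cluster are generally switched on earlier and further forward in the embryo than genes at its 5′ end, so the set of Hox genes a cell expresses marks its place along the body and gut axis. HOX proteins bind DNA together with homeodomain partners of the TALE class, the MEIS, PBX and PKNOX proteins.

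RNA was measured on 6 Affymetrix 3′ arrays in groups of 2 biological replicates, all from C57BL/6 embryos at embryonic day 13.5. The stomach and intestine controls are titled wildtype, while their genotype label gives 1 of the 2 alleles alone (Rosa26+/Barx1 or Bapx1+/Cre, marked WT), and the third group was intestine of Rosa26+/Barx1;Bapx1+/Cre embryos, called Barx1 intestine here (its arrays are the Barx1 arrays), in which the Cre recombinase expressed from the Bapx1 locus turns on BARX1, a homeodomain factor of the stomach mesenchyme, from Rosa26. All tissues were treated with proteases, which depletes endoderm, and the remaining cells were grown for 3 days in medium with 20% serum, so each array reads a mixture of cells after culture. Whether a replicate was 1 embryo or a pool is not given in the sources used here.

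Values are log2 expression levels, so a difference of 1 is a doubling. The array medians lay between 6.93 and 6.98, and the lower quartiles, used here as a mark below which a level was not shown to be above background, between 4.72 and 4.76. Barx1 itself followed the labels, with 9.82 and 9.79 for stomach replicates 1 and 2, 5.13 and 4.93 for intestine and 8.66 and 8.79 for the Barx1 intestine arrays. Marker genes of mesenchyme and smooth muscle (12 of 12 measured) had a mean log2 level of 11.05 to 11.72 per array. Foxf1 (6.62 to 7.17) and Foxf2 (6.28 to 7.88) lay around the array medians. Their levels were not equal across groups, with 4 of the 12 higher and 1 lower in stomach than in intestine. In Barx1 intestine 0 were higher and 1 lower than in intestine, and 1 was higher and 5 lower than in stomach. Genes of other cell types were also read. The 14 leukocyte markers had mean levels of 9.05 and 10.03 in intestine, 8.59 and 8.28 in stomach and 7.21 and 8.07 in Barx1 intestine; 0 of 14 passed in stomach against intestine and 6 of 14 were lower in Barx1 intestine than in intestine. The 15 endoderm epithelium markers had 9.05 and 7.93, 6.83 and 7.59, and 7.97 and 7.27 in the same order, and the 6 intestinal endoderm markers 6.54 and 6.71, 5.55 and 5.38, and 6.44 and 6.06. Of the epithelial markers 2 were lower in stomach and 1 in Barx1 intestine than in intestine, and of the intestinal endoderm markers 4 and 0. Enteric neural crest markers (9 of 12 measured) had 7.30 and 7.38, 7.06 and 6.93, and 6.31 and 6.56, with 3 lower and 1 higher in stomach and 3 lower in Barx1 intestine than in intestine. The 9 endothelial markers had 5.32 and 5.39, 5.02 and 4.96, and 5.13 and 5.17, with 3 lower in stomach and 2 in Barx1 intestine than in intestine and 4 of 9 below the lower quartile on all arrays. Mesothelial markers (4 of 6) lay at 6.14 to 6.87, with 1 higher and 1 lower in stomach. All these counts are of genes with an adjusted p under 0.05 by limma. Of all genes, 8.86% were called higher and 8.09% lower in stomach than in intestine. For Barx1 intestine the shares were 1.86% higher and 2.12% lower than in intestine, and 2.56% and 2.64% against stomach.

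By their main probe sets, the HoxA genes fell on both sides of the lower quartile. Every member from Hoxa2 to Hoxa9 lay above the lower quartile on all 6 arrays, and Hoxa10, Hoxa11 and Hoxa13, at the 5′ end, lay below it on all 6. The other Hoxa4 probe set lay above it only for stomach replicate 1. Levels of different probe sets also depend on how well each binds, so the members are compared below only between groups and not with each other. Hoxa10, Hoxa11 and Hoxa13 had 1 probe set each, so a low level and a weakly binding probe set cannot be told apart.

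**Figure D1:**
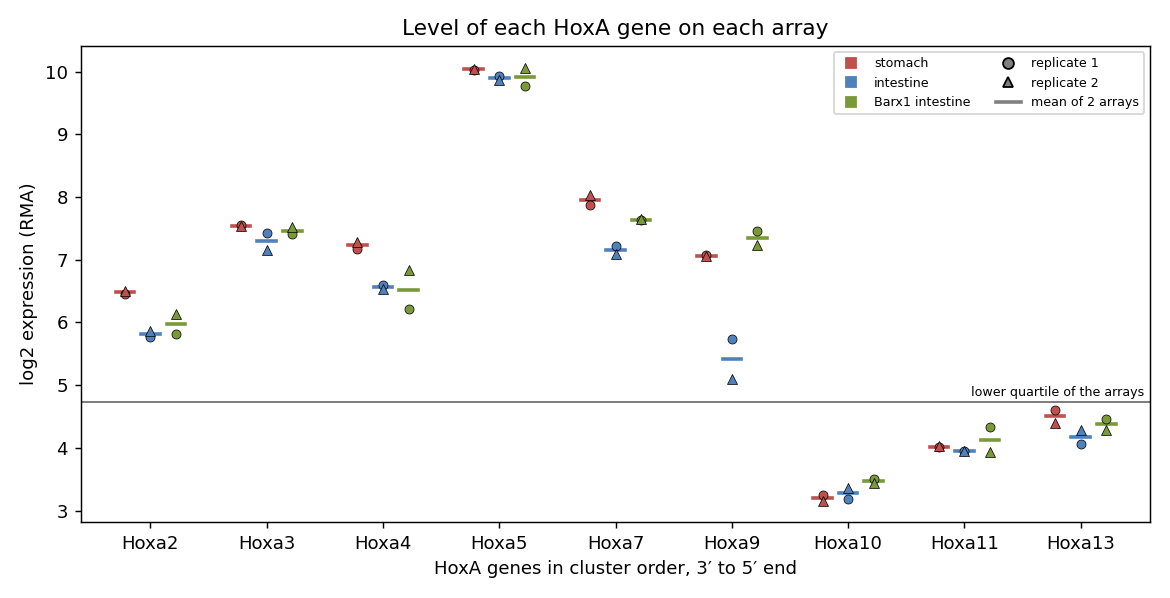
Log2 expression of the 9 HoxA genes in cluster order on each of the 6 arrays; circles are replicate 1, triangles replicate 2, bars the mean of 2 arrays, and the grey line marks the lower quartiles of the arrays (4.72 to 4.76). Hoxa9 shows the widest gap, with both intestine arrays (5.73 and 5.10) far under the other 4 (7.05 to 7.46), while Hoxa10, Hoxa11 and Hoxa13 stay under the line in all groups.

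In stomach against intestine, 3 of the 9 genes were higher in stomach and 0 were lower by limma (adjusted p under 0.05 over all 12393 genes). They were Hoxa9, by its main probe set only, Hoxa7 and Hoxa2. Of all genes, 16.9% were called in this comparison, 8.86% higher in stomach and 8.09% lower. The median difference was 0.33 over the 9 genes and 0.02 over all genes, but the middle value is that of Hoxa13, a gene below the lower quartile on all arrays. Both stomach arrays lay above both intestine arrays for 8 of the 9, among them Hoxa11 and Hoxa13 with readings below the lower quartile, and no member had both below. Of all genes, 64.1% had arrays without overlap, 34.5% with stomach higher and 29.6% with stomach lower. In such mixed cultures, fewer cells that express a gene and less RNA per cell cannot be told apart. In Barx1 intestine against intestine, 2 of 9 were higher and 0 lower, again Hoxa9 and Hoxa7, beside 3.98% of all genes called, 1.86% higher and 2.12% lower. The median difference there was 0.19 over the 9 genes, the value of Hoxa11, which also lay below the lower quartile, and 0.02 over all genes. Both comparisons use the same 2 intestine arrays, so they are not independent of each other.

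Hoxa9 and Hoxa7, which lie next to each other, were the members called in both comparisons, and the DNA just before their annotated starts is shown for that reason. Each window is the 250 bases before the start in RefSeq (GRCm38.p6, chromosome 6, minus strand, written 5′ to 3′ along the gene), at chr6:52218574-52218823 for Hoxa7 and chr6:52227371-52227620 for Hoxa9. Capitals mark matches on either strand to TTTATG or TTTATT, the kind of site bound by CDX and posterior HOX proteins, to TAATTA or TAATTG, a homeodomain core, or to AGGTCA, the core of a retinoic acid receptor site.
Hoxa7: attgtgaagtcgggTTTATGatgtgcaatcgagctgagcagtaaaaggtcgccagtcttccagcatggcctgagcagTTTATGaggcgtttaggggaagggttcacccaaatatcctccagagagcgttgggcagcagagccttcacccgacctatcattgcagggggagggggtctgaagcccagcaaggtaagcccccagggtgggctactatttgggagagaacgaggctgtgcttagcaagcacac
Hoxa9: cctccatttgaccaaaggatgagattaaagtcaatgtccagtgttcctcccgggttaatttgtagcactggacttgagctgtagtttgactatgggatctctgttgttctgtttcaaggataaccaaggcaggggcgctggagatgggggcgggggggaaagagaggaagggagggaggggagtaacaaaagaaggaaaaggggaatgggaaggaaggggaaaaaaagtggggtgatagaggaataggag
The Hoxa7 window held TTTATG at 2 places, 236 to 231 and 173 to 168 bases before the start, and none of the other 4 motifs. The Hoxa9 window held none of the 5. Over all 32851 windows of that length, 10.8% held TTTATG at least once, 18.1% TTTATT, 4.84% TAATTA, 7.17% TAATTG and 14.0% AGGTCA. Among the members, 8 had a window in the table, Hoxa4 being the one without, and the remaining matches were 1 TTTATT each for Hoxa2 and for the upstream one of the 2 starts of Hoxa10. The matches do not overlap each other, the Hoxa9 window overlaps the annotated gene Gm52902, and a match describes letters, not binding.

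Hoxa9, a gene of the middle trunk that also acts in blood progenitors, had the widest span of group means of the 9 genes (1.93). It read 7.08 and 7.05 in stomach, 5.73 and 5.10 in intestine and 7.46 and 7.24 in the Barx1 arrays. Both intestine arrays were low, and the arrays of the other groups lay close together. Stomach exceeded intestine by 1.65 (SE 0.21, 95% interval 1.13 to 2.17, adjusted p = 0.00882 by limma), a 3.14-fold difference. Barx1 intestine exceeded intestine by 1.93 (SE 0.21, 95% interval 1.41 to 2.45, adjusted p = 0.0179), or 3.81-fold. Barx1 intestine and stomach did not differ past the threshold (0.28, 95% interval -0.24 to 0.80, adjusted p = 0.465), although both Barx1 intestine arrays were the higher ones. The intestine arrays that set the low value were also those with the highest means of the leukocyte, enteric neural crest, intestinal endoderm and endothelial markers, and the part of those cells in the result was not tested.

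The size of the Hoxa9 difference depended on the probe set. The other probe set had a mean of 6.46 over the arrays, against 6.61 for the main one, and read 6.66 and 6.50 in stomach, 6.26 and 6.12 in intestine and 6.78 and 6.43 in the Barx1 arrays. Intestine was again the lowest group, without overlap. Its excess in stomach was 0.39 (95% interval 0.06 to 0.72, adjusted p = 0.106 over all probe sets) and in Barx1 intestine 0.42 (95% interval 0.09 to 0.74, adjusted p = 0.148), so it passed in neither comparison, and both intervals lie wholly below those of the main probe set in the same fit (1.14 to 2.15 and 1.43 to 2.44). The difference between the 2 probe sets was not itself tested. The main probe set had the higher mean in stomach (7.06 against 6.58) and in Barx1 intestine (7.35 against 6.60). In intestine it had the lower one (5.41 against 6.19). Its choice by the mean over all arrays thus rested on the groups in which Hoxa9 was called higher.

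**Figure D2:**
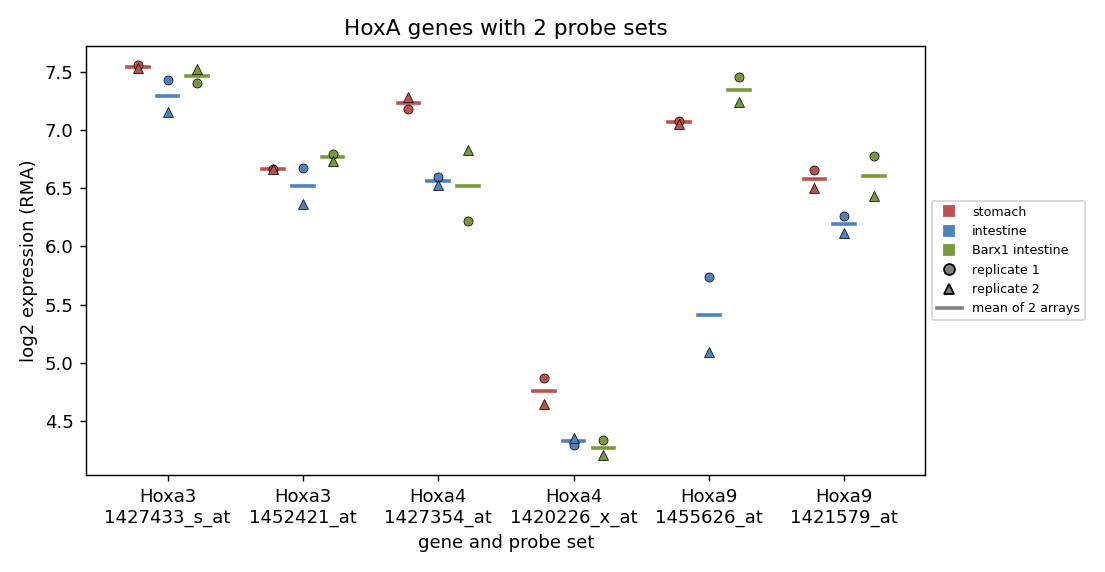
Log2 expression on each array for the 3 HoxA genes with 2 probe sets, symbols as in the plot of levels by gene. Intestine is lowest for both Hoxa9 probe sets but the gap to stomach is 1.65 in the main probe set, drawn first, and 0.39 in the other; heights of different probe sets are not comparable.

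Hoxa7, a regulator of vertebral identity, followed the same order of intestine below the other groups at a smaller size. It read 7.87 and 8.03 in stomach, 7.22 and 7.10 in intestine and 7.63 and 7.64 in the Barx1 arrays. The 3 groups did not overlap, and Barx1 intestine lay between the others. Stomach exceeded intestine by 0.79 (SE 0.08, adjusted p = 0.00492 by limma), and Barx1 intestine exceeded it by 0.48 (SE 0.08, adjusted p = 0.0417). Barx1 intestine stood 0.31 below stomach (difference -0.31, 95% interval -0.51 to -0.11, adjusted p = 0.0872), short of the threshold.

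For Hoxa2 and Hoxa4, nearer the 3′ end of the cluster, the mean of Barx1 intestine lay closer to that of intestine than to that of stomach. The order of the Hoxa2 group means was still that of Hoxa7, and whether these genes differ from Hoxa7 was not tested. Hoxa2, which specifies the second pharyngeal arch and the hindbrain, read 6.45 and 6.51 in stomach, 5.76 and 5.87 in intestine and 5.81 and 6.13 in the Barx1 arrays. Both stomach arrays lay above all 4 intestine arrays of either genotype. The excess of stomach over intestine was 0.67 (SE 0.12, adjusted p = 0.0185 by limma), while Barx1 intestine differed from intestine by 0.16 (95% interval -0.13 to 0.44, adjusted p = 0.468) and from stomach by -0.51 (95% interval -0.80 to -0.22, adjusted p = 0.0679).

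Hoxa4 read 7.18 and 7.28 in stomach, 6.60 and 6.53 in intestine and 6.22 and 6.83 in the Barx1 arrays. Its Barx1 intestine arrays lay on either side of the intestine arrays. Stomach exceeded intestine by 0.66 (SE 0.19, adjusted p = 0.0721 by limma), a difference of about the size of that of Hoxa2 that did not pass. The SD was 0.07 in stomach, 0.05 in intestine and 0.43 in the Barx1 arrays, and the fit shares its estimate of spread over all groups. Over the alternative fits the difference ran from 0.55 to 0.72 and passed in some of them, so its call depended on the fit. Barx1 intestine differed from intestine by -0.04 (95% interval -0.53 to 0.44) and from stomach by -0.71 (95% interval -1.19 to -0.22, adjusted p = 0.101). The other Hoxa4 probe set lay near or below the lower quartile, with 4.87 and 4.65 in stomach, 4.30 and 4.35 in intestine and 4.34 and 4.21 in the Barx1 arrays. Only stomach replicate 1 lay above the lower quartile of its array, so the difference of 0.43 between stomach and intestine (adjusted p = 0.0369 over all probe sets by limma) is between levels not shown to be above background and is not counted as a call of Hoxa4.

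Hoxa5 and Hoxa3 had the narrowest spans among the members above the lower quartile (0.14 and 0.25). Hoxa5, needed for lung formation and for regional identity of the stomach lining, read 10.02 and 10.05 in stomach, 9.92 and 9.87 in intestine and 9.77 and 10.06 in the Barx1 arrays. Its difference was 0.14 between stomach and intestine (95% interval -0.12 to 0.40, adjusted p = 0.413 by limma) and 0.02 between Barx1 intestine and intestine (95% interval -0.24 to 0.28, adjusted p = 0.940). These intervals exclude a difference as large as that of the main Hoxa9 probe set, but the stomach interval includes that of the other Hoxa9 probe set (0.39). Hoxa3, required for thymus and parathyroid formation, read 7.55 and 7.53 in stomach, 7.43 and 7.15 in intestine and 7.40 and 7.52 in the Barx1 arrays. Its differences from intestine were 0.25 in stomach (95% interval -0.01 to 0.51) and 0.17 in Barx1 intestine (95% interval -0.09 to 0.43), neither past the threshold (adjusted p = 0.158 and 0.385). Its other probe set, at 6.37 to 6.80, passed in no comparison either.

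Hoxa10, Hoxa11 and Hoxa13 act in the lower trunk, the limb, the reproductive tract and, for Hoxa13, the hindgut and cloaca. Hoxa10 ranged from 3.16 to 3.51 over the 6 arrays, Hoxa11 from 3.94 to 4.33 and Hoxa13 from 4.06 to 4.61. All 18 readings lay below the lower quartile of their array, so no level of these genes was shown and their differences (from -0.13 to 0.33) have no reading as more or less expression. None passed in any comparison.

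**Figure D3:**
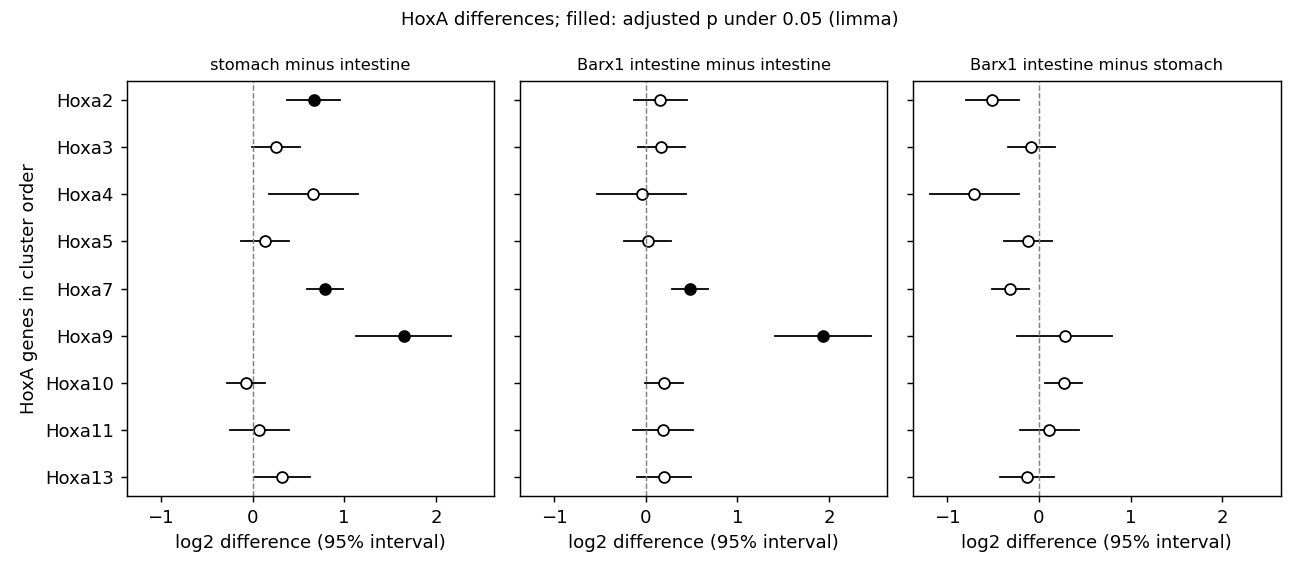
Log2 difference and 95% interval of each HoxA gene in the 3 comparisons from the limma fit; filled circles have an adjusted p under 0.05. Hoxa9 and Hoxa7 are filled in both comparisons with intestine, Hoxa2 in stomach minus intestine, and none in Barx1 intestine minus stomach.

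Between Barx1 intestine and stomach, 0 of the 9 genes passed by limma, beside 5.20% of all genes (2.56% higher and 2.64% lower), and 4 had an unadjusted p under 0.05 (Hoxa2, Hoxa4 and Hoxa7, lower in Barx1 intestine, and Hoxa10, whose level was not shown), beside 24.2% of all genes at that unadjusted threshold. The arrays did not overlap for 6 of the 9 genes, beside 58.0% of all genes (29.5% higher and 28.5% lower), with Hoxa2, Hoxa3, Hoxa4 and Hoxa7 lower in Barx1 intestine and Hoxa9 higher; the sixth was Hoxa10, with readings below the lower quartile. The median difference was -0.12, against 0.00 over all genes. For Barx1 intestine against intestine, 3 of 9 genes had arrays without overlap, Hoxa7 and Hoxa9, both higher, and Hoxa10, with readings below the lower quartile. That share is near the 30.1% of all genes that were higher without overlap, beside 22.4% lower and 52.4% in all.

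The calls depended on single arrays to differing degrees. The excess of Hoxa7 in stomach over intestine passed in all 6 fits that left out 1 array (adjusted p from 0.0148 to 0.0462). That of Hoxa9 lost its call without stomach replicate 1 (adjusted p = 0.0634) and without stomach replicate 2 (adjusted p = 0.0678), and that of Hoxa2 without stomach replicate 1 (0.0976), stomach replicate 2 (0.114) and intestine replicate 1 (0.0714). In Barx1 intestine against intestine, Hoxa9 passed in 2 of the 6 fits, those without an intestine array, and Hoxa7 in none (adjusted p from 0.0569 to 0.170). None of these called differences changed sign, and that of Hoxa9 stayed between 1.33 and 1.97 in stomach and between 1.61 and 2.25 in Barx1 intestine. The closing section gives the calls over all genes in these fits.

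**Figure D4:**
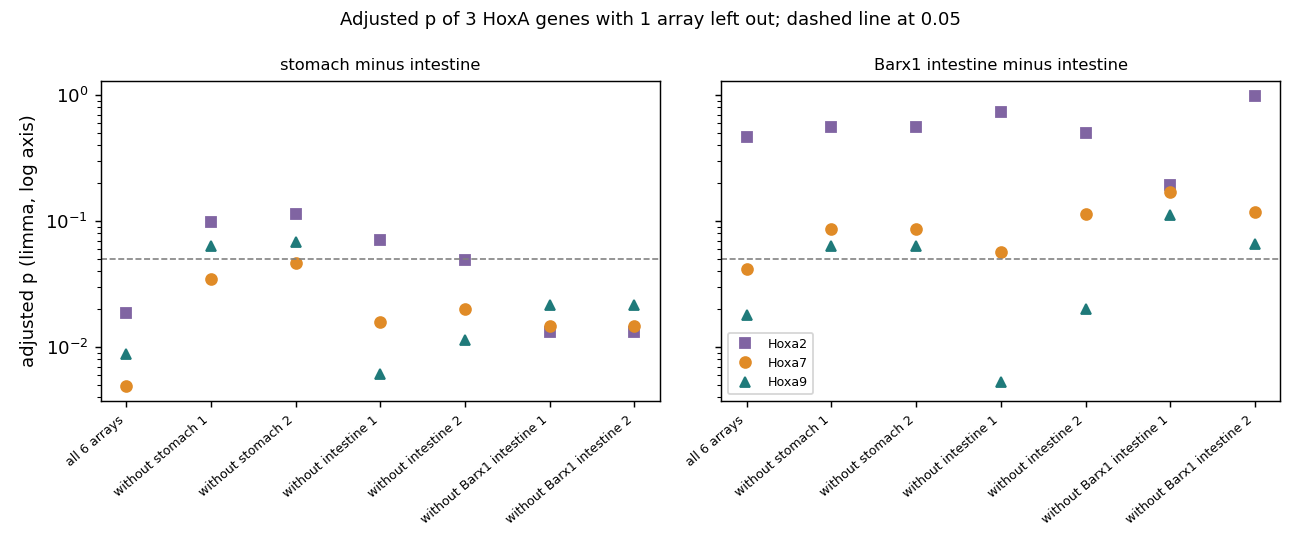
Adjusted p (log axis) of Hoxa2, Hoxa7 and Hoxa9 with all 6 arrays and with each array left out; points under the dashed line at 0.05 are called. In stomach minus intestine all Hoxa7 points lie under the line, and in Barx1 intestine minus intestine Hoxa9 stays under it only without 1 of the intestine arrays or with all 6 arrays.

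The partners of HOX proteins included genes with the same order of groups. Of 9 TALE genes listed, 8 were measured, and 4 were higher in stomach than in intestine with 0 lower, against 2 higher and 0 lower in Barx1 intestine. Among all genes, 8.86% were called higher in stomach and 1.86% higher in Barx1 intestine than in intestine. The list medians were 0.22 and 0.16. Meis1, a partner of posterior HOX proteins, read 9.76 and 9.79 in stomach, 8.64 and 8.63 in intestine and 9.44 and 9.36 in the Barx1 arrays, without overlap of any group. It rose by 1.13 in stomach (adjusted p = 0.00124 by limma) and by 0.76 in Barx1 intestine (adjusted p = 0.00836), and Barx1 intestine was lower than stomach (-0.37, adjusted p = 0.0332, a call kept in 2 of the 6 fits). The first of these calls held in all 6 fits without 1 array and the next in 5, ending without Barx1 intestine replicate 1 (adjusted p = 0.0551). Meis2 was higher in stomach by 0.79 (adjusted p = 0.00966) and Pbx3 by 0.41 (adjusted p = 0.0107), both losing the call without either stomach array. Pbx2 was higher by 0.24 in stomach and 0.33 in Barx1 intestine (adjusted p = 0.0386 and 0.0423), and neither call held in any of the 6 fits.

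**Figure D5:**
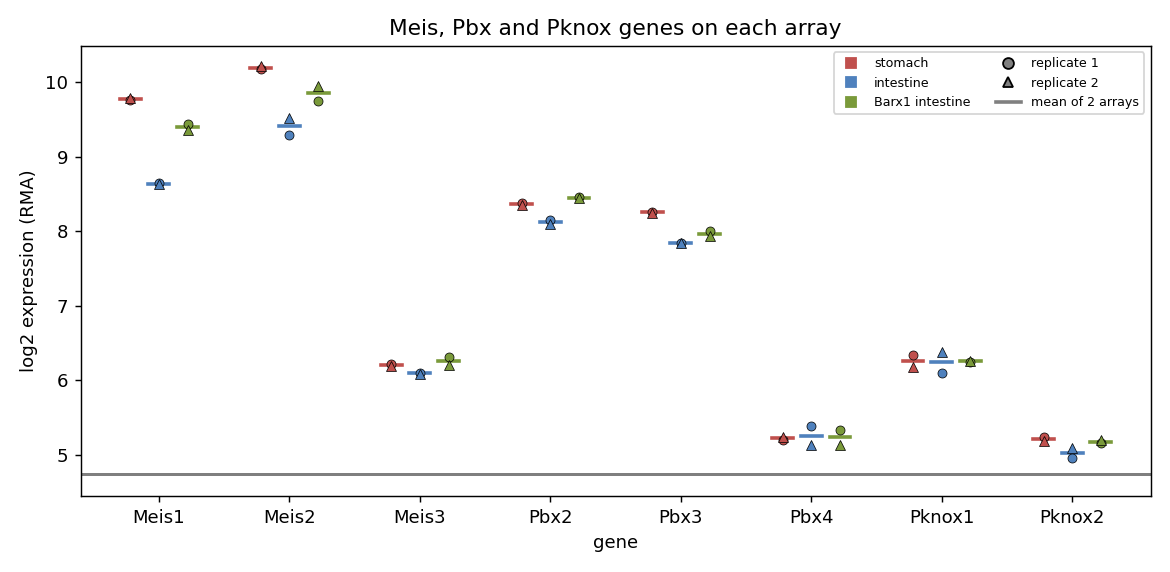
Log2 expression of the 8 measured TALE partner genes on each array, symbols as in the plot of levels by gene. Meis1 has both intestine arrays (8.64 and 8.63) under the Barx1 intestine (9.36 and 9.44) and stomach arrays (9.76 and 9.79), and Meis3, Pbx4, Pknox1 and Pknox2 were called in no comparison.

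Known regulators of Hox genes were read in the same fit, in which 16.9% of all genes were called in stomach against intestine and 3.98% in Barx1 intestine against intestine. Of 16 listed upstream genes 13 were measured, among them Cdx1, Cdx2 and Cdx4 and the retinoic acid receptor genes, and 1 was higher in stomach than in intestine. That was Egr2, a hindbrain activator of Hox genes and a growth factor response gene, at 7.94 and 8.37 in stomach, 5.55 and 6.44 in intestine and 6.02 and 6.01 in the Barx1 arrays (2.16, adjusted p = 0.0108 by limma, lost without either stomach array). None of the 13 passed in Barx1 intestine against intestine. However, Cdx1, Cdx4, Cyp26a1 and Fgf8 lay below the lower quartile on all 6 arrays, so no level of these genes was shown. Cdx2 lay above it, at 5.10 to 5.40. Cdx2, which activates posterior Hox genes in the gut, differed by -0.19 in stomach and -0.13 in Barx1 intestine (adjusted p = 0.191 and 0.447). Against stomach, Barx1 intestine was lower in Egr2 (-2.14, adjusted p = 0.0257) and in Rarb, a retinoic acid receptor (-1.39, adjusted p = 0.0349), each in 2 of the 6 fits. Of 21 trithorax and Polycomb genes, which keep Hox genes on or off, 19 were measured. In stomach against intestine Bmi1 (0.36), Ash2l (0.34) and Phc1 (0.31) were higher and Jarid2 (-0.40) lower, each call being lost without either stomach array. Those of Bmi1, Ash2l and Phc1 were also lost without either intestine array, and that of Jarid2 without intestine replicate 2. None was called in Barx1 intestine against intestine, and Cbx7 was higher against stomach (0.47) at a level below the lower quartile.

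Of the 5 measured genes beside the cluster, none was called in Barx1 intestine against intestine, where 3.98% of all genes were called. Hibadh (-0.38, adjusted p = 0.0140 by limma) and Tax1bp1 (-0.25, adjusted p = 0.0334) were lower in stomach than in intestine, calls that passed in 3 and 0 of the 6 fits. Against stomach, Hibadh was higher in Barx1 intestine (0.32, adjusted p = 0.0453, 0 of 6 fits). Evx1, the nearest measured gene on the 5′ side, lay between 4.51 and 4.87, at about the lower quartile. Skap2, the nearest on the 3′ side, read 9.76 and 9.91 in stomach, 9.69 and 9.83 in intestine and 9.32 and 9.50 in the Barx1 arrays (adjusted p = 0.647 and 0.110 against intestine).

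The remaining Hox clusters gave other counts in the same fit. In stomach against intestine, 1 gene was higher and 1 lower of 9 HoxB genes, 0 and 3 of 6 HoxC genes, and 0 and 0 of 7 HoxD genes. The medians were -0.09, -0.39 and 0.07, those of HoxB and HoxD being the values of Hoxb7 and Hoxd1. Hoxb1, Hoxb7, Hoxb13, Hoxd1, Hoxd10, Hoxd11 and Hoxd12 lay below the lower quartile on all 6 arrays, so no level of these genes was shown. In Barx1 intestine against intestine the counts were 1 higher and 1 lower, 0 and 0, and 1 and 0, and against stomach 1 and 0, 2 and 0, and 1 and 0. Of all genes, 8.86% were called higher and 8.09% lower in stomach against intestine. The shares were 1.86% and 2.12% in Barx1 intestine against intestine, and 2.56% and 2.64% against stomach. The genes called were Hoxb9 and Hoxb5 (lower) in both comparisons with intestine, Hoxc4, Hoxc8 and Hoxc9 (lower) in stomach, Hoxd8 in both comparisons of Barx1 intestine, and Hoxb6, Hoxc8 and Hoxc9 in Barx1 intestine against stomach. With 1 array left out, the call of Hoxc4 and that of Hoxb5 in Barx1 intestine against intestine held in no fit. That of Hoxc8 in stomach against intestine (-4.55) held in every fit, and the remaining calls held in some fits only. Among the paralogs of Hoxa9, Hoxb9 read 7.27 and 7.22 in stomach, 6.74 and 6.25 in intestine and 7.70 and 7.57 in the Barx1 arrays, with intestine lowest as for Hoxa9 (0.75 and 1.14 above intestine, adjusted p = 0.0330 and 0.0301 by limma). Both Hoxb9 calls passed in 2 of the 6 fits, those without an intestine array. Hoxc9 had a mean of 7.05 ± 0.07 in stomach, with 7.57 ± 0.23 in intestine and 7.76 ± 0.05 in the Barx1 arrays (SD, n = 2), and was lower in stomach than in intestine (-0.52, adjusted p = 0.0356, passing in 1 of the 6 fits), and Hoxd9 stayed between 5.38 and 5.68 with no call. Whether the clusters differ as groups was not tested.

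The genes closest to Hoxa9 were found by the root mean square difference over the 6 arrays after each gene was centred on its own mean. The 6 closest of 12392 were Nrk, a protein kinase gene (0.29), Has2, a hyaluronan synthase (0.30), Six2, a homeobox gene of the posterior stomach (0.31), Homer2 (0.33), Klhdc8a (0.34) and Niban1 (0.34). Nrk read 10.61 and 10.77 in stomach, 8.62 and 8.51 in intestine and 10.44 and 10.54 in the Barx1 arrays, and Six2 read 8.04 and 7.86, 5.79 and 5.94, and 8.04 and 8.13. In both genes, as in Hoxa9, the stomach and Barx1 intestine arrays lay well above the intestine arrays, which follows from choosing them by closeness to Hoxa9 on these arrays. By the same measure Hoxa7 came at rank 106 (0.62) and the other HoxA genes at rank 1150 or beyond, with Hoxa4 last at 5304. Values were centred but not scaled, so this measure depends on the size of the differences. A gene with a narrow span ranks far from Hoxa9 whatever its order of groups.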

How the data were processed

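The deposited table holds log2 expression values of 22690 probe sets on 6 Affymetrix arrays, for which the submitters' processing notes name RMA as what the authors ran; its version is not given in the sources used here. This method brings arrays to a common distribution, so a shift shared by most genes would be lost. The log2 scale was read from the values (2.48 to 14.7). Gene names came from the platform annotation. Probe sets naming 1 gene (20380) were kept, those naming several (691) or none and control probe sets left out, and the probe set with the highest mean stood for each of 12393 genes. The identifiers of all 9 members matched RefSeq.

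All 6 arrays entered 1 fit of 3 group means in limma 3.58.1 (R 4.3.3; 3 residual degrees of freedom, prior 2.58), tested on simulated data, with Benjamini-Hochberg adjustment over all genes per comparison. SE and 95% intervals are those of this fit. Only 2 arrays per group limit the precision.

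The members and gene lists were chosen with earlier results of these data known. Named were all members, list genes past the threshold (up to 4 per list) and the 6 genes nearest the member of widest span; neighbours, paralogs and regulators named beside them without a call were chosen after their values were seen. Alternatives covered a dim-gene filter, 2 scalings, probe set choices, a variance trend, fits of 2 groups, a replicate block, other thresholds and leaving out each array; a block with crossed stomach numbers was chosen after seeing the data.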

Additional observations from a re-analysis of the deposited data

How the results depend on the processing

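Over the alternatives, 396 values of member differences were recomputed, and 363 kept direction and side of the threshold, 18 lost a call, 6 gained one and 9 changed sign, none of these past the threshold. With 1 array left out, these ran, in Barx1 intestine minus intestine, from -0.0025 to 0.32 for Hoxa2, -0.35 to 0.26 for Hoxa4, -0.13 to 0.17 for Hoxa5 and -0.011 to 0.39 for Hoxa11, in Barx1 intestine minus stomach from -0.26 to 0.030 for Hoxa5 and -0.086 to 0.31 for Hoxa11, and in stomach minus intestine from -0.16 to 0.016 for Hoxa10. Hoxa3 gave 0.011 in Barx1 intestine minus stomach as the mean of its probe sets (-0.08 otherwise). The filter on dim genes left out Hoxa10, Hoxa11 and Hoxa13. The count of called members was 1 to 4 with 1 array left out in stomach minus intestine (3 with all arrays), and 0 to 1 in both comparisons with Barx1 intestine. In Barx1 intestine minus intestine it was 0, not 2, in a fit of those 2 groups and at a threshold of 0.01; Hoxa9 then had an adjusted p of 0.0630 and Hoxa7 of 0.0874 in the fit of 2 groups. In Barx1 intestine minus stomach it was 1 with the mean of all probe sets (Hoxa4, whose other probe set was mostly below the lower quartile) and 2 at a threshold of 0.10. Over all genes, 1 array less gave 281 to 1692 calls in stomach minus intestine (2100 with all arrays), 50 to 466 in Barx1 intestine minus intestine (493) and 0 to 727 in Barx1 intestine minus stomach (644). The last count was 12 without stomach replicate 1, 0 without stomach replicate 2, 5 without Barx1 intestine replicate 1 and 113 without Barx1 intestine replicate 2 by limma. In the order of these comparisons, thresholds of 0.01 and 0.10 gave 512 and 3310, 40 and 1316, and 11 and 1516 calls. A variance trend gave 1037 and 1189 in the comparisons with Barx1 intestine, the fit of 2 groups 50 in Barx1 intestine minus intestine, and the filter 998 in Barx1 intestine minus stomach. With the replicate number as a block, 1 member (Hoxa9) was called in Barx1 intestine minus intestine, Hoxa7 having an adjusted p of 0.0735, and 267 and 337 genes were called in the comparisons with Barx1 intestine; the replicate block changed no other call of a member. The numbers are not shown to pair the samples: deviations of arrays with the same number correlated at -0.22 (stomach and intestine), -0.06 (stomach and Barx1 intestine) and 0.20 (intestine and Barx1 intestine) across genes. A replicate block with stomach numbers crossed gave 383 calls in Barx1 intestine minus stomach. The cause of these changes was not tested.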
